A study of Mus musculus with 15 samples.

Results

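The genes described here are the nuclear genes for the subunits of oxidative phosphorylation (OXPHOS): 86 of the 55401 gene identifiers in the count files, all protein-coding in GENCODE vM21. They were taken by symbol (Nduf subunits without the Ndufaf assembly factors, Sdha to Sdhd, Uqcr genes, Cyc1, the nuclear Cox4 to Cox8 genes and Atp5 genes). They fall into 37 genes of complex I, 4 of complex II, 9 of complex III, 18 of complex IV and 18 of complex V. Ndufa4 and Ndufa4l2 stand with complex I by their symbols, although the Ndufa4 protein is now known as a complex IV subunit. Cox7a2l, a factor in the joining of complexes III and IV, stands with complex IV. Of the 86 genes, 83 passed the filter on low counts and were tested among 21009 genes. Cox7b2, Cox8b and a second identifier of Atp5o (ENSMUSG00000116933) did not.

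Oocytes of Kunming mice were compared in 5 groups of 3 libraries, each library made from a pool of 6 oocytes. The design text gives an age of 12 to 14 days, which the study's methods state for the mice whose preantral follicles were cultured. Germinal vesicle oocytes grown in vivo (IVV) came from punctured antral follicles, and no separate age is given for their donors. The methods also name 6-week-old mice as a source of ovaries, so donor age may differ between IVV and the culture groups. The other oocytes came from preantral follicles grown in vitro to day 10 without (IVG) or with (IVG-NT) neurotrophin-4 (NT-4), a neurotrophin that binds the receptor TRKB, or to day 6 without (IVG day 6) or with it (IVG-NT day 6). No genotype was altered, and no compound other than NT-4 separates the culture groups.

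Oxidative phosphorylation takes place in the inner mitochondrial membrane. Complex I oxidises NADH and complex II oxidises succinate. Both pass electrons through ubiquinone to complex III and, by cytochrome c, to complex IV, which reduces oxygen, while complexes I, III and IV pump protons. Complex V, the ATP synthase, makes ATP from the proton gradient. A few subunits are encoded in mitochondrial DNA, none of them in complex II, and the rest are nuclear. The growing oocyte is rich in mitochondria and depends on pyruvate oxidation, which feeds this chain.

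Total counts were 5954262 and 7125348 in IVG-NT day 6 libraries 1 and 2, and 19033272 to 55593251 in the other 13. The 12 oocyte markers examined summed to 13493 to 25910 normalised CPM per library (CPM, read counts over the library total, scaled by the TMM method), so the label oocyte held in all 15. The 12 granulosa cell markers summed to 49.2 to 399 CPM. Amh was at 0 in 13 libraries, but Nr5a2, Gja1 and Kitl were counted in all 15 (up to 115, 93.2 and 92.7 CPM). Inha was counted in 14 (up to 119 CPM). A property of the libraries crosses the groups: in 9 libraries (rRNA-rich) 12.5% to 37.9% of counts fell on an rRNA gene, CT010467.1, and in 6 (rRNA-poor) only 0.187% to 0.714%. The rRNA-poor libraries are IVV 2 and 4, numbered as in the sample titles, and replicate 3 of each in vitro group, so IVV holds 2 of them and every other group 1. The limit of 5% between the kinds was chosen with these shares known. What separates the kinds is not given in the sources used here.

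The summed mRNA of the nuclear subunits differed more between the kinds of library than between the groups. It took 3.53%, 0.291% and 3.54% of all counts in IVV libraries 2, 3 and 4, and 0.22%, 0.269% and 2.48% in IVG 1 to 3. The corresponding shares were 0.241%, 0.190% and 3.07% in IVG-NT, 0.346%, 0.40% and 2.36% in IVG day 6, and 0.422%, 0.622% and 1.63% in IVG-NT day 6. Every rRNA-poor library was above every rRNA-rich one. In normalised CPM, the sum was 13405 to 31627 in the rRNA-poor libraries and 2182 to 7716 in the rRNA-rich ones. Because the libraries are pools, fewer cells that express these genes and less subunit mRNA per cell cannot be told apart. Nor can either be told apart from a property of the libraries themselves, since what separates the kinds is not given.

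**Figure D1:**
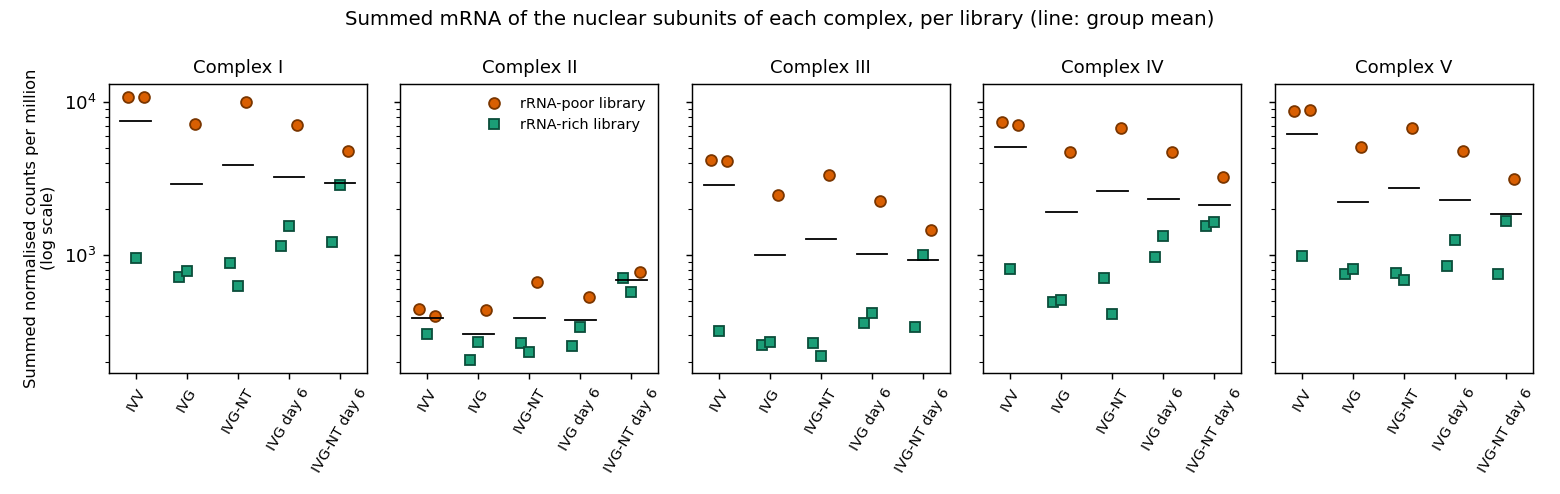
Summed normalised CPM of the nuclear subunits of each complex (log scale), 1 point per library by group, with the group mean as a line. The rRNA-poor libraries (circles) stand above the rRNA-rich ones (squares) in complexes I, III, IV and V, while in complex II the ranges of 400 to 771 and 205 to 709 CPM meet.

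The complexes did not share this property equally. In IVV the mean of libraries 2 and 4 was 11.4 times library 3 for complex I, 13 times for complex III, 9.03 times for complex IV and 9.01 times for complex V. For complex II the ratio was 1.38. In the rRNA-poor libraries complex I summed to 4807 to 10869 CPM against 629 to 2860 in the rRNA-rich ones, complex III to 1460 to 4172 against 219 to 993, complex IV to 3236 to 7420 against 412 to 1636, and complex V to 3130 to 8905 against 689 to 1657. These sums do not overlap between the kinds, and those of complex II do.

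Gene by gene, 52 of the 83 subunits tested had every rRNA-poor library above every rRNA-rich library in all 5 groups, a pattern that 15.9% of all 21009 genes tested showed. A further 26 showed it in 4 groups, and 5 in 3 or fewer. The difference of log2(normalised CPM + 1) between the kinds, averaged over the 5 groups, had a median of 2.85 over the subunits and 0.11 over all genes tested. Its median was 3.17 in complex I, 0.86 in complex II, 2.61 in complex III, 2.70 in complex IV and 2.84 in complex V. It was largest for Uqcr10 (6.23), a small subunit of complex III, and Ndufa12 (5.16), an accessory subunit of complex I. It was smallest for Sdha (-0.26), the flavoprotein of complex II, Atp5b (0.00), the catalytic beta subunit of complex V, Sdhc (0.20), a membrane anchor of complex II, and Ndufs1 (0.33), the largest core subunit of complex I.

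Longer transcripts tended to have the lower difference, though some short ones also had a low one, such as Cox7a1 (0.91, 439 bases), Atp5g2 (1.31, 586 bases) and Cox4i1 (1.40, 755 bases). The median annotated transcript length was 742 bases over the subunits tested (321.5 to 2900), with 56 of 83 under 1000, and 2620 over all protein-coding genes tested. Spearman's correlation between the difference and transcript length was -0.50 over the 83 subunits and -0.53 over 15471 protein-coding genes. Both are descriptions across genes of the same 15 libraries, and genes are not replicates. At a like length the subunits still had the higher medians: 3.27 for 44 subunits under 750 bases against 1.57 for all 695 protein-coding genes of that length, 2.85 for 23 against 0.93 for 2569 at 750 to 1500 bases, and 1.36 for 16 against 0.14 for 5843 at 1500 to 3000 bases. Levels were not matched in these bins. The division is not particular to the subunits. Assembly factors summed to 2269 to 4054 CPM in rRNA-poor libraries and 949 to 1759 in rRNA-rich ones. The 3 carriers listed below summed to 714 to 1487 against 30.5 to 276 CPM. Sums of the other gene lists overlapped between the kinds, such as the TCA cycle list (979 to 1667 against 647 to 2243 CPM). Large differences were also seen for Atp5g1 (4.82), a subunit c gene, and Ndufb2 (3.21), an accessory complex I subunit. Their median annotated transcripts have 2676 and 2413 bases. An annotated coding transcript of Atp5g1 has only 596 bases, however, so the median can overstate the length of the mRNA counted. Which transcripts the oocytes held was not tested, so neither gene is shown to depart from the trend with length.

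**Figure D2:**
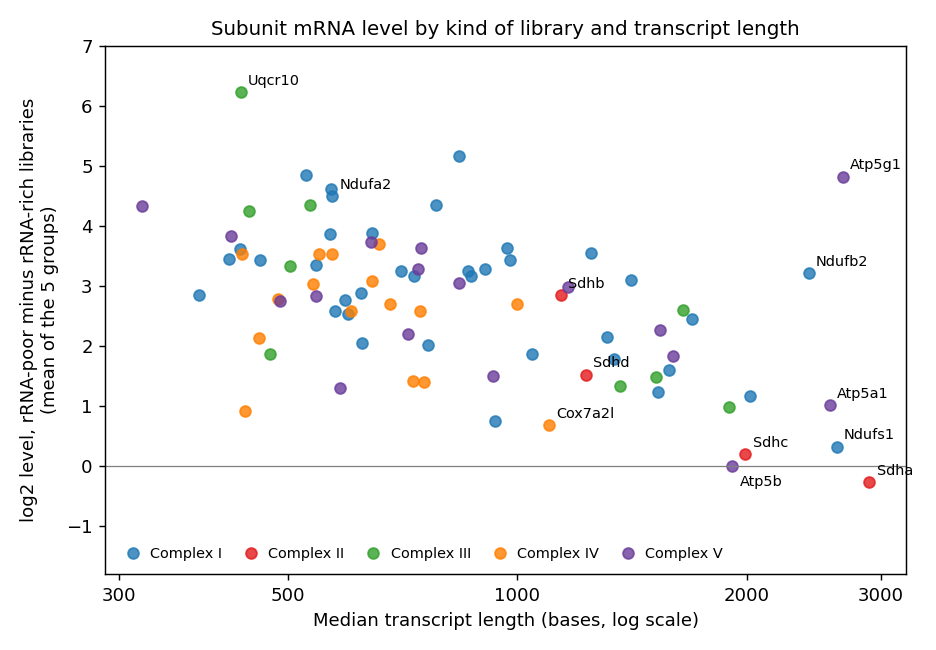
Difference of log2(normalised CPM + 1) between rRNA-poor and rRNA-rich libraries, averaged over the 5 groups, against median annotated transcript length in bases (log scale), 1 point per subunit gene. Subunits with short transcripts lie highest, up to Uqcr10 at 6.23, and Sdha, the longest at 2900 bases, lies at -0.26.

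Among complex I genes, the highest levels per kilobase of merged exons were those of accessory subunits. Ndufa2, an accessory subunit with a thioredoxin-like fold, had the highest level, with 3492, 126 and 3235 normalised CPM per kilobase in IVV libraries 2, 3 and 4. In IVG it had 37.6, 32.7 and 2166, and in IVG-NT 64.6, 27.9 and 2847. Library 3 of each culture group stood far above the other 2, and all 3 groups overlap. Ndufb11 and Ndufa1, accessory subunits of the membrane arm, followed with means over all libraries of 417 and 215 CPM per kilobase. The nuclear core subunits were below these genes, with means from 4.46 (Ndufs1) to 49.4 (Ndufs7) CPM per kilobase. Other accessory subunits lay in that range too, such as Ndufa7 (48.7) and Ndufb2 (12.2). Without division by length, Ndufs1 had 2.21 to 18.5 CPM in 14 of 15 libraries and Ndufv1, which binds NADH, 0.696 to 136 CPM. Ndufa12 had the largest mean difference between the kinds in complex I: 257 and 252 CPM in IVV 2 and 4, 0 in IVV 3, and 50.2 to 83 CPM in the rRNA-poor library of IVG, IVG-NT, IVG day 6 and IVG-NT day 6. The count of 0 in IVV 3 allows up to 0.158 CPM before TMM scaling (3 counts), and such limits cover counting error only, since the reads carry no molecular identifiers.

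All 4 genes of complex II were examined, the one complex made of nuclear subunits alone. Sdha had 42.6, 33.2 and 39.2 CPM in IVV 2 to 4, 76.5, 108 and 42.2 in IVG, 48.5, 82.5 and 39.0 in IVG-NT, 49.2, 15.9 and 41.7 in IVG day 6, and 388, 18.6 and 65.9 in IVG-NT day 6. It did not follow the kind of library, and the 388 CPM of IVG-NT day 6 library 1 stood far above the other 14 values. Sdhb, the iron-sulphur subunit, had 149 and 143 CPM in IVV 2 and 4 and 140 to 150 in the rRNA-poor culture libraries, against 0 to 58.5 in the 9 rRNA-rich libraries. Its 6 rRNA-poor values were the closest to each other of the 4 genes. Sdhc had 91.6, 208 and 87.0 CPM in IVV, 41.5, 56.8 and 92.3 in IVG and 114, 59.8 and 177 in IVG-NT. Sdhd, the other membrane anchor, had 162, 44.5 and 131 CPM in IVV, 67.6, 77.1 and 158 in IVG, 83.2, 70.1 and 302 in IVG-NT, 96.8, 62.3 and 221 in IVG day 6, and 59.5, 417 and 404 in IVG-NT day 6.

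In complex III the small subunits Uqcr10 and Uqcr11 were highest per kilobase. Uqcr10 had 1700, 16.2 and 1737 CPM per kilobase in IVV, 16.3, 12.6 and 1008 in IVG, 18.8, 12.2 and 1261 in IVG-NT, 20.8, 36.1 and 765 in IVG day 6, and 0, 0 and 346 in IVG-NT day 6. Uqcr11 (mean 434) divided by kind of library in every group. Uqcrq (247), which sits near cytochrome b, did so in 4 groups, with 352 CPM in rRNA-rich IVG-NT day 6 library 2 against 346 in the rRNA-poor library 3. Cyc1, the cytochrome c1 that hands electrons to cytochrome c, was at 22.0 to 24.6 CPM in IVV 2 and 4, 15.8 in IVV 3 and 0 to 53.1 in the culture groups. Uqcrc2, a core protein outside the electron path, had 119, 44.1 and 101 CPM in IVV and 106, 114 and 97.8 in IVG, with no division by kind in IVG.

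In complex IV, Cox6a1 was highest with 2254, 137 and 2201 CPM per kilobase in IVV, 58.7, 54.4 and 1202 in IVG, 81.2, 39.1 and 1546 in IVG-NT, 104, 220 and 998 in IVG day 6, and 250, 134 and 661 in IVG-NT day 6. Cox8a and Cox7a2 followed, with means of 244 and 243. Several complex IV subunits have isoforms that differ between tissues. Cox4i1, the common form of subunit 4, made up 98.5% to 100% of the per-kilobase COX4 level in every library, Cox4i2, the form known from lung, the rest. Cox6a1, the non-muscle form, made up 91.6% to 100% of COX6A over Cox6a2, and Cox8a at least 94.3% of COX8. Cox6b2, known as the testis form, held 25.7% to 33.3% of COX6B in the 6 rRNA-poor libraries, from IVV (30.4% and 27.3%) to IVG (33.3%), IVG-NT (32.9%), IVG day 6 (25.7%) and IVG-NT day 6 (28.2%). In the rRNA-rich libraries its share ran from 0% to 44.8%.

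The COX7A family followed the kind of library. Cox7a2, the common form, held 62.3% to 97.8% of the family's per-kilobase level in rRNA-poor libraries and 28.5% to 51.6% in rRNA-rich ones, and Cox7a2l most of the rest. The muscle form Cox7a1 stayed at 0% to 2.21%. Cox7b2 was counted in IVV 2 and 3 only (10 and 8 counts) and Cox8b in IVV 3 and 4 only (19 and 14 counts). Ndufa4l2, a relative of Ndufa4, held 0% to 17.6% of the pair. Atp5k, subunit e, led complex V with 1505, 66.4 and 1405 CPM per kilobase in IVV, 10.2, 10.3 and 914 in IVG and 18.9, 7.09 and 1136 in IVG-NT. Atp5e, the epsilon subunit of the catalytic head, and Atp5h, subunit d of the stalk, followed with means of 362 and 170. Atp5a1, the alpha subunit, had 231, 113 and 246 CPM in IVV, 283, 291 and 247 in IVG, 173, 257 and 203 in IVG-NT, 153, 120 and 222 in IVG day 6 and 21.7, 18.1 and 252 in IVG-NT day 6.

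Subunit c, which forms the proton-carrying ring of complex V, has 3 nuclear genes that encode the same mature protein. The last 75 codons of each are shown because they show how counts of the 3 genes can be told apart. They are from GENCODE vM21 transcripts on mm10, for genes at chr11:96068852-96075670 (Atp5g1), chr15:102662864-102672352 (Atp5g2) and chr2:73908447-73911326 (Atp5g3), all on the minus strand. Capitals mark the bases at which at least 1 of the 3 differs.
Atp5g1: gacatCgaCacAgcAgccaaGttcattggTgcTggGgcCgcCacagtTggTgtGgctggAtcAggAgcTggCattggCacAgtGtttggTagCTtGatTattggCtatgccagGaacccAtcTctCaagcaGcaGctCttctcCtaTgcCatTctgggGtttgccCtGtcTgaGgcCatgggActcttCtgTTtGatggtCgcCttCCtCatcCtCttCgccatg
Atp5g2: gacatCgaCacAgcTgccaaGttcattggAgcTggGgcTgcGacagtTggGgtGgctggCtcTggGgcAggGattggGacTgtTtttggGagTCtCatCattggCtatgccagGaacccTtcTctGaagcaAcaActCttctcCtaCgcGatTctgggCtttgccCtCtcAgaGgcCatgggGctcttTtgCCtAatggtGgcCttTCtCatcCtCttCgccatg
Atp5g3: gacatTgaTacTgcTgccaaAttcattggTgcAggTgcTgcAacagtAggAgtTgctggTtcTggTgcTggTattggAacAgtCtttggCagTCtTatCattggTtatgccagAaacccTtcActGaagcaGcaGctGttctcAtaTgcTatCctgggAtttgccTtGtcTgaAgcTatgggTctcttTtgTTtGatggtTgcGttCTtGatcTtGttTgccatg
Of the 225 bases 57 differ in at least 1 gene, and no residue of the 75 does. Pairs of genes are 84.9%, 80.0% and 78.7% identical over these bases, and the longest run common to all 3 is 8 bases, so a read of usual length falls on 1 gene.

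The 3 genes for this 1 protein were used in different proportions by kind of library. Atp5g1 had 1048, 39.7 and 1178 CPM in IVV, 31.6, 35.2 and 568 in IVG, 26.0, 19.1 and 823 in IVG-NT, 37.2, 33.3 and 486 in IVG day 6, and 0, 24.5 and 429 in IVG-NT day 6. Per kilobase it held 50.6% to 59.9% of subunit c in the 6 rRNA-poor libraries and 0% to 17.0% in the rRNA-rich ones. Atp5g2 held 30.5% to 38.4% in rRNA-poor libraries, and 67.7% to 88.5% in 8 of the 9 rRNA-rich ones, where it was the leading gene. The exception was IVG-NT day 6 library 2, with 3.83 CPM of Atp5g2 and 80.4 CPM of Atp5g3. Within the rRNA-poor libraries the 3 shares thus varied by under 10 percentage points across the 5 groups.

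**Figure D3:**
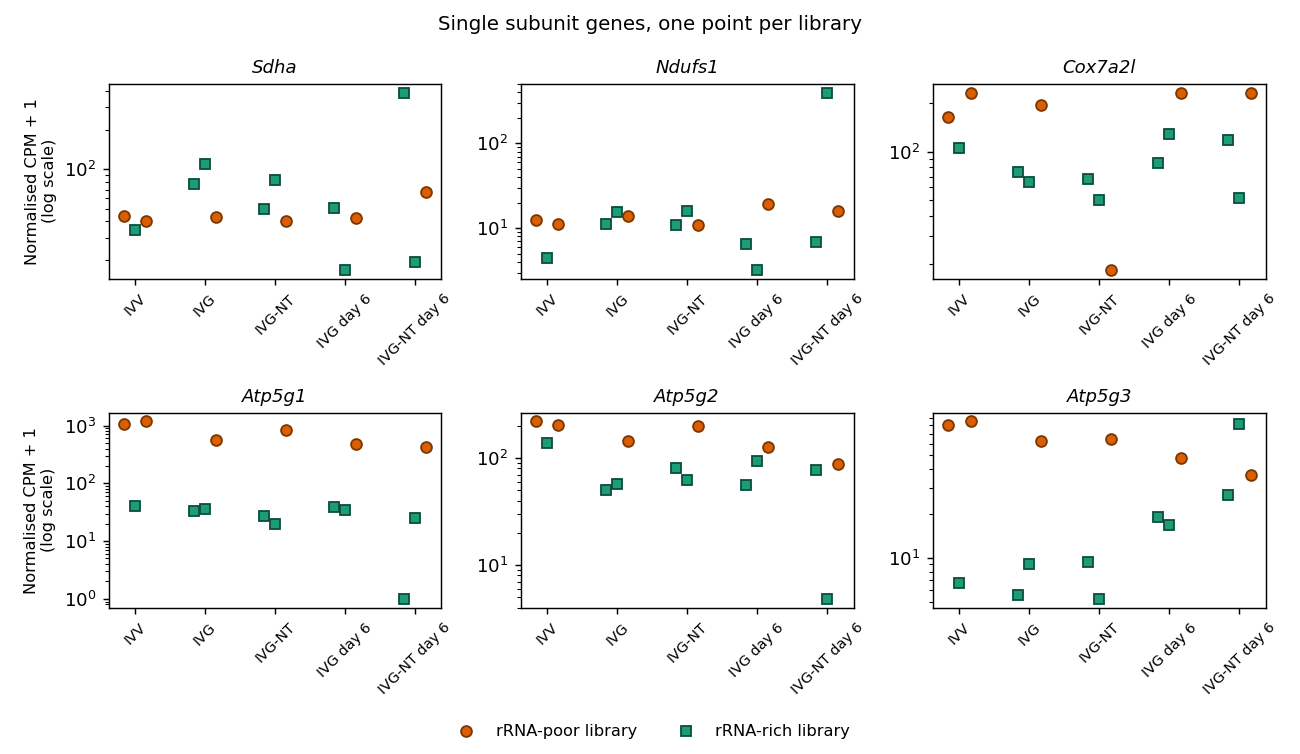
Normalised CPM + 1 (log scale) of Sdha, Ndufs1, Cox7a2l and the 3 subunit c genes, 1 point per library by group, circles for rRNA-poor and squares for rRNA-rich libraries. Sdha at 388 and Ndufs1 at 397 CPM stand out in 1 IVG-NT day 6 library each, Cox7a2l is at 17.5 CPM in IVG-NT library 3, and Atp5g1 divides by kind of library.

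The promoters of a few subunits are shown because a palindrome bound by nuclear respiratory factor 1 (NRF1), a known regulator of respiratory chain genes, occurs in them. The letters searched, on both strands, were GCGC and TGCGC separated by any 1 base, in the 250 bases before the RefSeq start of each gene. They were found for 13 of 68 subunit genes with a promoter (19.1%), against 4.23% of all 27025 genes and 7.70% of those tested here. The ETS-type letters CCGGAAG were found in 17.6% of the subunit promoters and 7.83% of all, but 13.1% of those tested, and the YY1 letters AAGATGGCG in 1.47%, 0.710% and 1.18%. General promoter letters were searched too. The SP1 letters GGGCGG were in 36.8%, 35.4% and 55.9%, so less often in subunits than in genes tested. The TATA letters TATAAA were in 8.82%, 14.3% and 9.72%, and CCAAT in 44.1%, 37.5% and 39.7%. The NRF1 letters were in 6 of 32 complex I promoters, 2 of 3 in complex II, 0 of 5 in complex III, 1 of 13 in complex IV and 4 of 15 in complex V. One example is printed per complex that has one, from RefSeq on GRCm38.p6, with capitals for the NRF1 and ETS letters.
Ndufa11, chr17:56717512-56717761, plus strand: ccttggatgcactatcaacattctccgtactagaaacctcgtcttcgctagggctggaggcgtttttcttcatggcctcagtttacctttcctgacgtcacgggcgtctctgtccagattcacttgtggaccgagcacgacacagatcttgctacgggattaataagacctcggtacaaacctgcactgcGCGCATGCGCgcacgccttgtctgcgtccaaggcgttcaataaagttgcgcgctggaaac
Sdhd, chr9:50603850-50604099, minus strand: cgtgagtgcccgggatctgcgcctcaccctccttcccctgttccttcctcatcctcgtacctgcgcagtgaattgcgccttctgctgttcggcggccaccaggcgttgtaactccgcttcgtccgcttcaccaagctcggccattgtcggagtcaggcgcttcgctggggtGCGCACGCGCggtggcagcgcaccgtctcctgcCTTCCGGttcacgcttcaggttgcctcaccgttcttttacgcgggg
Cox6a1, chr5:115348982-115349208, minus strand: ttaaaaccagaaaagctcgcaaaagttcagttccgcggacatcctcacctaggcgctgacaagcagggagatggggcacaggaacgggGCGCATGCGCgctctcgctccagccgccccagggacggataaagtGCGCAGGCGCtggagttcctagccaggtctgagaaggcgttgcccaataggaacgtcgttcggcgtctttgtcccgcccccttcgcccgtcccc
Atp5h, chr11:115419963-115420169, minus strand: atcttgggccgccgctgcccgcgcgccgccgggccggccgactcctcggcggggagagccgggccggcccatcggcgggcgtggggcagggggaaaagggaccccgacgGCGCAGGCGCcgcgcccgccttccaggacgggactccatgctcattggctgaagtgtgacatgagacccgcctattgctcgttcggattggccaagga
The Ndufa11 match begins 60 bases before the start, that of Sdhd 79 bases, those of Cox6a1 162 and 117 bases and that of Atp5h 141 bases. Bases nearest the start that the GENCODE annotation places inside the gene are left off for Cox6a1 and Atp5h. A match of letters is a description and not a binding site shown in these oocytes.

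The first comparison asked how growth in vitro changed the subunit mRNAs. Against IVV, fitted levels in IVG were lower for 76 of 83 subunits, with a median log2 fold change of -1.31 (all genes -0.20). The medians were -1.39 in complex I, -0.45 in complex II, -1.26 in complex III, -1.33 in complex IV and -1.41 in complex V. A median standard error of 1.38 stood against these values, and IVV holds 2 rRNA-poor libraries where IVG holds 1. A gene was called where its log2 fold change exceeded 1 in size and its P without adjustment was below 0.05. No subunit was called in edgeR's quasi-likelihood test, and none had P below 0.05. DESeq2's Wald test also called 0. Of all genes, 0.842% were called higher and 1.91% lower, and with Benjamini-Hochberg adjustment no gene of the 21009 passed in this or any other comparison.

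The smallest P values in that comparison belonged to small subunits of complexes IV and V. Cox7c, which had 886, 34.0 and 828 CPM in IVV and 25.2, 18.0 and 308 in IVG, had a log2 fold change of -2.31 (SE 1.35). Cox6c followed with -1.81 (SE 1.20) and Atp5j, the coupling factor of the stalk, with -2.10 (SE 1.42). The 7 subunits with a higher fitted level included Sdha at 0.98 (SE 0.89), Ndufs1 at 0.59 (SE 1.18) and Atp5a1 at 0.48 (SE 0.82). Atp5a1 was the 1 subunit whose groups did not overlap, with all 3 IVG values above all 3 IVV values, where 5.35% of all genes had such a pattern upward and 6.53% downward. Ndufa2, Uqcr10, Cox6a1 and Atp5k, the most abundant of their complexes, had -1.62, -1.74, -1.804 and -1.67, each with a standard error of 1.43 or more.

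Taken within 1 kind of library, the direction of the median stayed the same. The median difference of log2(normalised CPM + 1) between IVG and IVV was -0.53 in rRNA-rich libraries, with 57 of 83 subunits lower, and -0.53 in rRNA-poor ones, with 68 lower, while the medians of all genes were 0.00 and -0.03. Each of these rests on 1 library on one side and carries no test. Complex II differed in sign, with 0.42 and 0.05. Without the rRNA-poor IVG library 3, 38 subunits were called, all lower, with a median of -3.42, where 4.56% of all genes were called in either direction, and IVG is then left with rRNA-rich libraries only. With the replicate number as a block, 15 were called lower, where 2.54% of all genes were called. The numbers do not pair IVG with IVV, whose libraries are numbered 2 to 4. Kind of library and group thus cannot be told apart in the counts called without IVG 3.

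With NT-4 in the culture, the comparison with the same IVV libraries gave a median of -0.87 (all genes -0.19), with 75 of 83 subunits lower in the fit. The complexes had -0.87 (I), 0.15 (II), -1.02 (III), -0.98 (IV) and -1.09 (V). Sdhd (0.43, SE 0.84) and Sdha (0.56, SE 0.89) were higher in the fit, and Sdhc (-0.14, SE 0.71) and Sdhb (-0.73, SE 1.43) lower. Within kinds of library the medians were -0.50 (rich) and -0.14 (poor). Without IVG-NT library 3, 43 subunits were called, all lower, with a median of -3.48, and with the block 8 were, where 4.77% and 2.65% of all genes were called. Beside this comparison 1 of 7 theca and stroma markers, Col1a2, was called lower, as it was against IVG, and its part in the subunit values was not tested. The 2 sets of values, for IVG and IVG-NT, share their control libraries.

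One subunit was called in IVG-NT against IVV, where 0.624% of all genes were called higher and 2.67% lower. Cox7a2l (chr17:83501918-83517330, minus strand, mm10) had 162, 105 and 230 CPM in IVV and 66.7, 48.8 and 17.5 in IVG-NT. All 3 IVG-NT values were below all 3 IVV values, a pattern of 7.04% of all genes (4.57% upward). The log2 fold change was -1.90 (SE 0.78, adjusted p = 1.0, edgeR's quasi-likelihood test with Benjamini-Hochberg adjustment). The value turns on IVG-NT library 3: the other 5 rRNA-poor libraries had 162 to 231 CPM, and without that library the log2 fold change was -1.52 and the call was lost. It was also lost without IVV 4, without IVG-NT 2, with the block (-1.51), with the kind of library as covariate (-1.37) and in the rRNA-rich libraries alone (-0.83). In IVG, Cox7a2l had 74.0, 63.3 and 192 CPM.

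**Figure D4:**
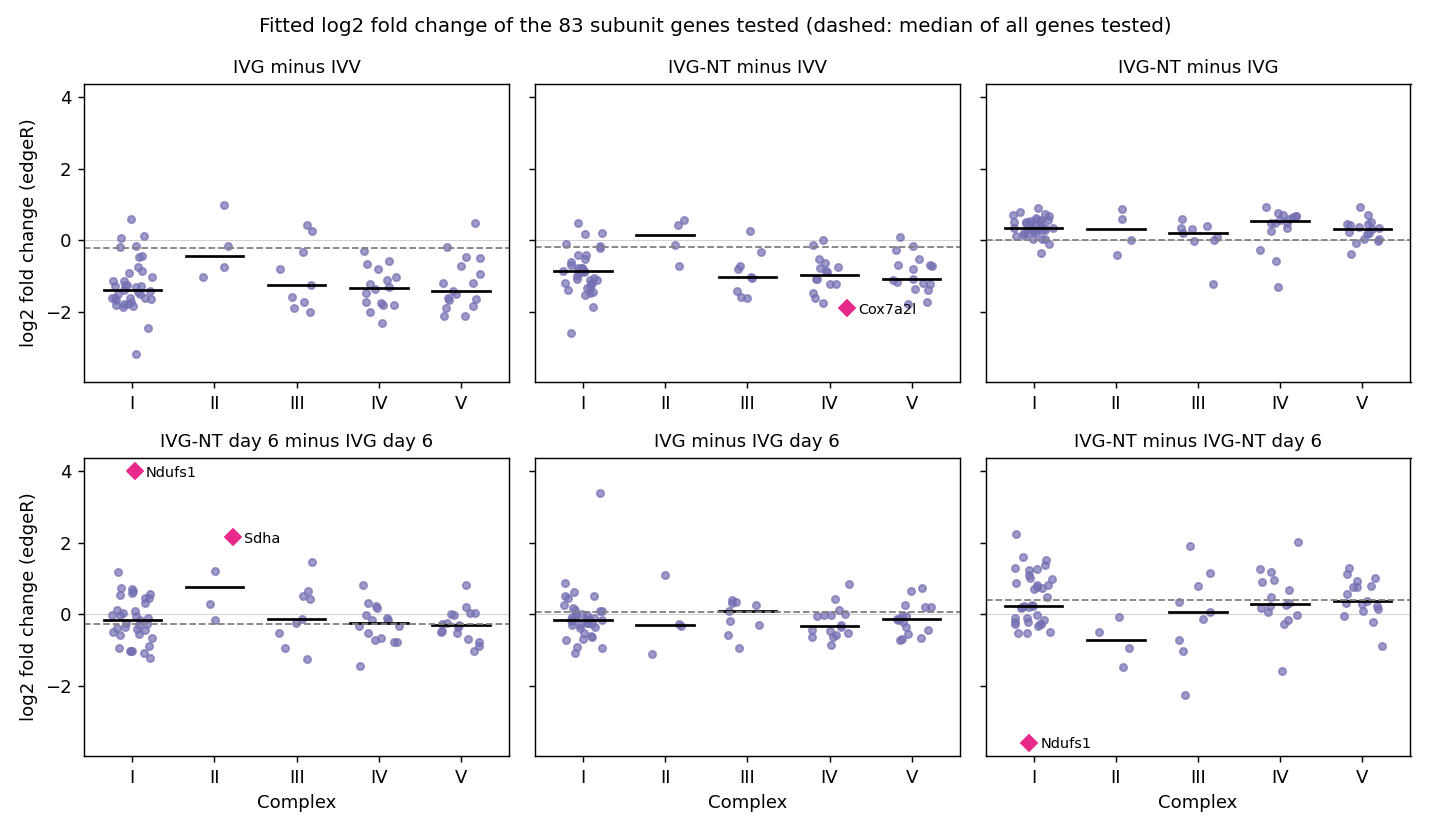
Fitted log2 fold change (edgeR) of each of the 83 subunit genes tested, by complex, in the 6 pairwise comparisons, with the median of each complex as a bar and the median of all genes tested as a dashed line. Diamonds name the genes past a log2 fold change of 1 and an unadjusted P of 0.05: Cox7a2l, Ndufs1 and Sdha, the last in 1 comparison with a log2 fold change of 2.15.

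The comparison of IVG-NT with IVG asked what NT-4 did at day 10, and both groups hold 1 rRNA-poor and 2 rRNA-rich libraries. The fitted level was higher in IVG-NT for 71 of 83 subunits, with a median of 0.34 (all genes 0.01) and medians of 0.34, 0.30, 0.21, 0.52 and 0.31 in complexes I to V. No subunit was called by edgeR or by DESeq2, and none had P under 0.05, where 0.438% of all genes were called higher and 0.804% lower. The median standard error of 1.35 exceeds the median. No subunit had groups that did not overlap (1.66% of all genes upward, 1.93% downward).

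The direction of that median rests on 1 pair of libraries. Between the rRNA-poor libraries, IVG-NT 3 and IVG 3, 72 of 83 subunits were higher, with a median of 0.41 on the log2 scale. Among the rRNA-rich libraries 42 were higher and 41 lower, with a median of 0.01, and the 4 pairs of libraries gave 0.28, 0.19, -0.19 and -0.35. Without IVG 3 the fit called 11 subunits, all higher, and without IVG-NT 3 it called 2, both lower, where 1.09% and 0.854% of all genes were called. The median was 2.51 and -2.001 in these fits, and it was also just below 0 without IVG 1 (-0.06) and without IVG 2 (-0.02). The smallest P values were those of Cox7a2l (-1.31, SE 0.76), Sdhc (0.88, SE 0.71) and Cox4i1 (0.68, SE 0.76). Cox4i1 had 126, 156 and 504 CPM in IVG and 227, 125 and 909 in IVG-NT.

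At day 6, NT-4 was compared in groups of which IVG-NT day 6 holds both shallow libraries. There 23 and 17 subunits had no count in libraries 1 and 2, against 2 to 7 in the other 13 libraries, and a count of 0 allows up to 0.504 and 0.421 CPM. The median log2 fold change was -0.17 (all genes -0.27), with 30 of 83 subunits higher, and -0.15, 0.75, -0.13, -0.24 and -0.29 in complexes I to V. In complex II, 3 of 4 genes were higher in the fit. The sign of the median over all subunits turned with single libraries: it was 0.11 without IVG-NT day 6 library 1 and 1.11 without IVG day 6 library 3, and 0.56 without both shallow libraries. Within kinds of library, the medians were -0.17 (rich, all genes -0.33) and -0.51 (poor, all genes -0.08), and in the rRNA-poor pair 62 of 83 subunits were lower with NT-4. No subunit had groups that did not overlap (1.01% of all genes upward, 7.44% downward).

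Both subunits called at day 6 were called higher with NT-4, where 6.74% of all genes were called higher and 4.83% lower, so the subunits' 2 of 83 lies below that share. Ndufs1 (chr1:63143596-63176833, minus strand, mm10) had 5.47, 2.21 and 18.5 CPM in IVG day 6 and 5.96, 397 and 15 in IVG-NT day 6. Its log2 fold change was 3.99 (SE 1.33, adjusted p = 0.38, edgeR's quasi-likelihood test with Benjamini-Hochberg adjustment). Without library 2 it was 0.29. Sdha (chr13:74322254-74350280, minus strand, mm10), at 388 CPM in library 1 and 15.9 to 65.9 in the other 5 libraries, had 2.15 (SE 0.92, adjusted p = 0.40 in the same test), and 0.30 without library 1. Each call thus rested on 1 shallow library, and on a different one. The exons of Ndufs1 overlap genes on the other strand, among them Eef1b2, and the counts are unstranded. Leaving out both shallow libraries gave 0.82 for Ndufs1 and 0.97 for Sdha, neither called. With the replicate number as a block, neither was called (2.78 and 1.73), while the block among the 12 in vitro libraries called 8 other subunits, 1 higher and 7 lower, where 7.32% of all genes were called. Without IVG-NT day 6 library 3, which leaves that group with its shallow libraries, 12 were called, 2 higher and 10 lower, 7 of them after adjustment, a share below the 29.1% of all genes called in that fit. Beside this comparison 3 of 11 granulosa cell markers were called lower, and 2 of 4 macrophage markers (Csf1r, Lyz2) and 1 of 7 theca and stroma markers (Dcn) higher. The macrophage markers summed to 53.1 CPM in IVG-NT day 6 library 1 and 0 to 4.34 CPM in the other 5 libraries. In that library 1, Csf1r had 272 counts (49.15 CPM) and Lyz2 22 counts, while Ptprc, Cd68 and Adgre1 had 0. The theca and stroma markers summed to 3.25 to 65.6 CPM in IVG-NT day 6 against 0 to 2.81 CPM in IVG day 6. The 65.6 CPM were 377 counts of Cyp11a1 in library 2, where the other theca and stroma markers had 0. The part of all these markers in the subunit values was not tested.

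The time in culture was compared without NT-4 as IVG against IVG day 6. The median was -0.15 (all genes 0.05), with 26 of 83 subunits higher, and -0.15, -0.29, 0.08, -0.32 and -0.15 in complexes I to V. The sign turned without IVG 1 (0.21), IVG 2 (0.23) or IVG day 6 library 3 (1.12). No subunit was called by edgeR or DESeq2 and none had P under 0.05, where 1.69% of all genes were called higher and 1.21% lower. With the replicate number as a block 1 was called higher, where 1.71% of all genes were called. The rRNA-rich libraries gave a median of -0.84, with 71 of 83 subunits lower at day 10, and their 4 pairs -0.73, -1.07, -0.70 and -1.04. The rRNA-poor pair gave 0.07, with 36 lower. The 2 kinds therefore went apart, and the rRNA-rich libraries alone called 7 subunits, 2 higher and 5 lower. In that fit 1.77% of all genes were called. Without the rRNA-poor IVG library 3, 8 were called, all lower, where 2.33% of all genes were called, and the median was -2.28. Beside this comparison 10 of 11 granulosa cell markers were higher in the fit (median 0.87), with Inhba called, and 1 of 12 oocyte markers, Zp2, was called lower. Their part in the nuclear and mitochondrial subunit values was not tested.

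Ndufa4l2 and Atp5a1 were the 2 subunits with all 3 IVG values above all 3 IVG day 6 values, where 4.47% of all genes had such a pattern upward and 2.95% downward. Ndufa4l2 had 0, 0 and 0.50 CPM at day 6 and 0.562, 2.34 and 2.66 at day 10 (log2 fold change 3.39, SE 2.04), and 1.97, 2.30 and 3.31 CPM in IVV. It overlaps Shmt2 on the other strand. Atp5a1 had a log2 fold change of 0.73 (SE 0.82). Among the lower subunits the smallest P was that of Sdhc (-1.10, SE 0.71).

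With NT-4, IVG-NT against IVG-NT day 6 gave a median of 0.25 (all genes 0.40), with 54 of 83 subunits higher and medians of 0.23, -0.73, 0.05, 0.29 and 0.38 in complexes I to V. All 4 complex II genes were lower in the fit. The sign of the overall median turned without IVG-NT 3 (-2.14) and without both shallow libraries (-0.39). Ndufs1 was called lower (-3.59, SE 1.30, adjusted p = 0.36, edgeR's quasi-likelihood test with Benjamini-Hochberg adjustment), where 5.45% of all genes were called higher and 7.21% lower. Without IVG-NT day 6 library 2 its value was 0.07, and with the block it was -2.58 and not called. Without IVG-NT day 6 library 3, 14 subunits were called, 13 of them higher and 6 after adjustment, and without IVG-NT 3 there were 8, all lower. In these fits 30.8% and 11.2% of all genes were called, above the subunits' shares. No subunit had groups that did not overlap (9.74% upward and 1.24% downward over all genes). The rRNA-rich libraries had a median of -0.48 and the rRNA-poor pair 0.99, with 66 of 83 subunits higher at day 10. Beside this comparison, 5 of 11 granulosa cell markers were called higher in IVG-NT, with sums of 136 to 313 CPM against 49.2 to 161 CPM, and 1 of 4 macrophage markers, Csf1r, was called lower, and their part in the subunit values was not tested. The difference between the NT-4 effects at day 10 and day 6, as an interaction term, had a median of 0.56 (all genes 0.33). Only Ndufs1 was called in it (-4.10), where 2.09% of all genes were called higher and 4.28% lower.

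The 13 subunits encoded in mitochondrial DNA were listed beside the nuclear ones. Their sum was higher in the rRNA-poor than in the rRNA-rich libraries in IVV and IVG-NT, but not in the other 3 groups. Their sum was 4834, 2078 and 4857 CPM in IVV, 1409, 2245 and 2185 in IVG, 2926, 2626 and 3261 in IVG-NT, 7203, 5702 and 6902 in IVG day 6, and 9558, 12478 and 2887 in IVG-NT day 6. All 3 IVG sums lay below all 3 IVG day 6 sums, in both kinds of library. Over the nuclear sum, the mitochondrial sum was 0.580, 0.848 and 0.110 in IVG and 2.02, 1.17 and 0.357 in IVG day 6. The libraries were primed with oligo(dT), and mitochondrial and nuclear transcripts differ in their tails.

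Against IVG day 6, 8 of the 13 were called lower in IVG, where 1.21% of all genes were, and all 13 had a negative fitted value, with a median of -1.77. For mt-Nd1, a core subunit of complex I, the level was 675, 486 and 519 CPM at day 6 and 75.2, 130 and 120 at day 10 (-2.37, SE 0.75, adjusted p = 1.0, edgeR's quasi-likelihood test with Benjamini-Hochberg adjustment). For mt-Co1, the catalytic subunit of complex IV, it was 1272, 1451 and 1622 CPM at day 6 and 314, 554 and 760 at day 10 (-1.42, SE 0.53, adjusted p = 1.0 in the same test). The others called were mt-Nd2, mt-Nd3, mt-Nd4, mt-Nd5, mt-Nd6 and mt-Cytb, 6 of the 7 mitochondrial complex I genes being among the 8. Leaving out 1 library gave 3 to 8 of the 13 called, with 3 without IVG 1, 4 without IVG day 6 library 1 and 5 without IVG 3. Since the genes share one transcribed unit per strand, they are not separate tests.

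**Figure D5:**
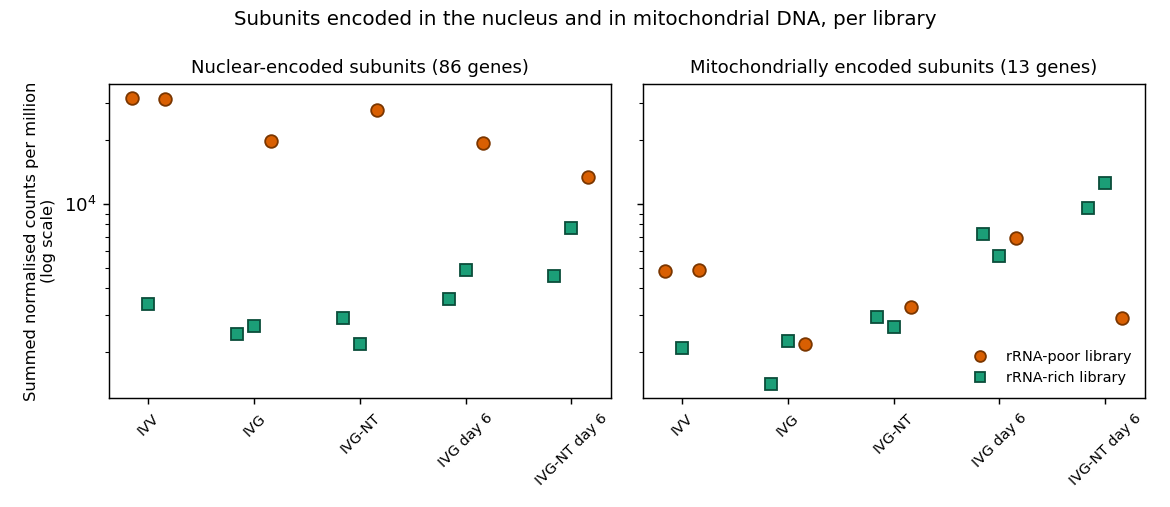
Summed normalised CPM (log scale) of the 86 nuclear and the 13 mitochondrially encoded subunits, 1 point per library by group. The nuclear sum divides by kind of library (13405 to 31627 CPM in circles, 2182 to 7716 in squares), while the mitochondrial sum is 1409 to 2245 CPM in the 3 IVG libraries and 5702 to 7203 in the 3 IVG day 6 libraries.

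In the other comparisons of the mitochondrial genes, IVG against IVV had a median of -1.31 (all genes -0.20). There mt-Co1, mt-Nd2 and mt-Nd3 were called lower, where 1.91% of all genes were. IVG-NT against IVG had a median of 0.70 (all genes 0.01) with all 13 positive and 0 called. IVG-NT against IVG-NT day 6 had a median of -1.42 (all genes 0.40). There mt-Nd1, mt-Nd2, mt-Nd4 and mt-Atp8 were called lower, where 7.21% of all genes were, and IVG-NT day 6 holds both shallow libraries. IVG-NT library 3 and IVG-NT day 6 library 3, the deep rRNA-poor pair, had sums of 3261 and 2887 CPM, so the lower sum at day 10 was not seen between them.

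The 50 assembly factors tested, which build the complexes without staying in them, had medians of -0.64 in IVG against IVV, -0.66 in IVG-NT against IVV, 0.09 for NT-4 at day 10, -0.15 for NT-4 at day 6, -0.03 for time without NT-4 and 0.26 for time with it. In the last comparison Cox10, which makes haem for complex IV, was called higher (1.14) and Acad9, a complex I factor, lower (-3.09). Of all genes, 5.45% were called higher there and 7.21% lower. Acad9 had 1, 770 and 1110 counts in IVG-NT day 6. The 770 counts, in shallow library 2, were its highest level in any library (134 CPM). No assembly factor was called in the other 5 comparisons. The 8 regulators of mitochondrial biogenesis tested and the 3 carriers (cytochrome c and the ADP/ATP carriers Slc25a4 and Slc25a5) had none called in any of the 6. Of 17 genes of the TCA cycle and pyruvate dehydrogenase, Cs, citrate synthase, was called higher in IVG-NT against IVV (1.55), where 0.624% of all genes were. Before scaling, Cs had 16473, 21457 and 5662 counts in IVG-NT 1 to 3 and 6733, 3063 and 6501 in IVV 2 to 4. The rRNA-poor IVG-NT library 3 thus had fewer than either rRNA-poor IVV library, and IVG-NT holds 2 rRNA-rich libraries where IVV holds 1. Dlst and Pdha1, of the oxoglutarate and pyruvate dehydrogenases, were called lower with NT-4 at day 6 (-2.22 and -1.87), where 4.83% of all genes were. Dlst, Pdha1 and Cs were called higher in IVG-NT against IVG-NT day 6 (1.93 to 2.29), where 5.45% of all genes were. That comparison shares the shallow libraries.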

How the data were processed

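Counts per Ensembl gene for 15 SMART-Seq2 libraries, each from 6 oocytes, were deposited by the authors without normalization. Per the study's methods the reads were aligned to mm10 with HISAT2 and quantified with StringTie, and the submitters' processing notes also name FastQC and edgeR. How reads were counted per gene and the annotation release are not given in the sources used here. The deposited values are whole numbers with differing totals and were read as raw counts. The subunit genes and gene lists were chosen with earlier results of these data known.

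Genes were filtered with filterByExpr (minimum count 10), scaled by TMM and tested with edgeR 4.0.16 (limma 3.58.1, R 4.3.3) in 1 quasi-likelihood fit of 5 group means, with Benjamini-Hochberg adjustment over 21009 genes. A call is a log2 fold change beyond 1 with unadjusted P under 0.05. On simulated data the procedure recovered the changed genes, and the unadjusted threshold also called genes that had not been changed. Those data had large changes, the same dispersion for all genes and no difference between kinds of library. The recovery therefore does not tell how many changes would be found in these libraries. Levels are TMM-normalised CPM, divided by merged exon length in GENCODE vM21 where genes are compared, and values outside the fit are log2(CPM + 1). The 3 libraries of a group come from replicated experiments not named further, so P measures the spread between these samples. Named were all complex II genes, the 3 highest genes of the other complexes, isoform families, core subunits, and in each comparison the 3 smallest P in each direction. The kit does not keep strand, and 30 of the 86 subunits share exon bases with another gene (26 on the opposite strand), so their counts are uncertain to that extent.

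Alternatives were no filter, DESeq2 1.42.0 size factors and Wald test, only the groups compared, the replicate block, kind of library as covariate and leaving out each library. Fits of the rRNA-rich libraries alone, of the 12 in vitro libraries with the block and without both shallow libraries were added after seeing the data. Same-numbered libraries deviated together (r over 0.1 for each number) between IVG-NT and IVG (0.61 to 0.872). They also did between IVG-NT day 6 and IVG day 6 (0.124 to 0.418) and between IVG and IVG day 6 (0.289 to 0.707). Between IVG-NT and IVG-NT day 6 r was 0.099 to 0.363, and with IVV it was negative (-0.711 to -0.501). Replicate 3 is the rRNA-poor library of every in vitro group, so a shared experiment and the kind of library cannot be told apart in r. The main fit was unpaired, and the replicate number entered only as a block in alternatives. The authors' own comparisons were not used. Values of some genes are not reported here.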

Additional observations from a re-analysis of the deposited data

Results flagged for a closer look

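Ndufs1, the largest core subunit of complex I, had an NT-4 effect at day 10 that differed from that at day 6 by -4.10 on the log2 scale (SE 1.73, adjusted p = 0.71, interaction term in edgeR's quasi-likelihood test). It drew attention because the same treatment gave a different effect at the 2 time points by a test of the difference itself. The level was 397 CPM in IVG-NT day 6 library 2, 1 of the 2 shallow libraries, and 2.21 to 18.5 CPM in the other 14, so the value rests on that library.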

How the results depend on the processing

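Both the counts of nuclear subunits called and the medians moved with the libraries in the fit. Leaving out 1 library gave 0 to 38 called in IVG against IVV, 0 to 43 in IVG-NT against IVV, 0 to 11 for NT-4 at day 10, 1 to 12 for NT-4 at day 6, 0 to 8 for time without NT-4, 1 to 14 for time with it and 0 to 12 for the interaction. Of all genes, the same fits called 0.843% to 4.56%, 0.999% to 4.77%, 0.535% to 1.09% and 7.47% to 29.1% in the first 4. They called 1.33% to 3.91% for time without NT-4, 7.10% to 30.8% for time with it and 4.81% to 21.1% for the interaction. The highest subunit counts came without a replicate 3 library, which leaves 2 rRNA-rich libraries in that group. The medians then ranged from -3.42 to -0.90, -3.48 to -0.41, -2.001 to 2.51, -1.11 to 1.11, -2.28 to 1.12 and -2.14 to 1.14 in the 6 comparisons, turning sign in the last 4, and moved by less than the SD between libraries under the settings that kept every library or left out more than 1. Of 440 medians by complex, 81 changed sign. In the order above, the counts were 0, 1, 0, 2, 0, 1 and 1 as reported. The paired fit (replicate block) gave 15, 8, 0, 0, 1, 0 and 0, and among the 12 in vitro libraries 0, 8, 1, 8 and 2 for the last 5. The kind of library as covariate gave 3, 0, 0, 12, 5, 21 and 7, and the rRNA-rich libraries alone 3, 1, 0, 12, 7, 27 and 8, with 1 adjusted call among the 27. Of all genes, the covariate called 3.83%, 4.31%, 2.03%, 15.8%, 4.86%, 16.9% and 8.96% in the same order. The rRNA-rich libraries called 18.1% of all genes for NT-4 at day 6, 19.5% for time with NT-4 and 11.8% for the interaction. For NT-4 at day 6 the 12 of 83 subunits lie below these shares. For time with NT-4 the 21 and 27 of 83 lie above them. Without the filter 3 were called in IVG against IVV, where 4.49% of all genes were. DESeq2 size factors gave 3 for time with NT-4 and 2 for the interaction, DESeq2's Wald test 1 for NT-4 at day 6 and 2 for time with NT-4, and the 2 groups alone 1 for NT-4 at day 6. Without both shallow libraries, 4 were called for time with NT-4 and 2 for the interaction. Mitochondrially encoded genes called were 3 to 8 for time without NT-4 and 3 to 8 for time with it on leaving out 1 library. For time with NT-4 they were 4 as reported, 8 with DESeq2 size factors, 7 by the Wald test, 2 with the 2 groups alone, 9 with the covariate, 10 in rRNA-rich libraries, 8 with the in vitro block and 0 without the shallow libraries. Of 915 values for named subunits, 20 changed sign. In IVG against IVV these were Sdhd (0.078 with the block, 0.41 with the covariate, 0.72 in rRNA-rich libraries, and 0.21, 0.04 and 0.01 without IVV 2, IVG 1 and IVG 2, with a range of -0.64 to 0.21) and Sdhb (0.20 in rRNA-rich libraries). In IVG-NT against IVV they were Sdhd (-0.56 without IVG-NT 3, up to 0.79) and Sdhc (0.35 without IVV 3, 0.17 without IVG-NT 2). For NT-4 at day 10 they were Cox4i1 (-0.58, up to 1.57) and Atp5l (-2.22, up to 2.79) without IVG-NT 3, Atp5l (-0.35) in rRNA-rich libraries and Uqcrc1 (0.28, down to -1.65) without IVG 3. Without both shallow libraries Ndufs4 (0.0081), Atp5a1 (0.68) and Atp5g2 (0.013) changed for NT-4 at day 6 and Atp5a1 (-0.35) for time with NT-4, where Ndufs1 (0.068 without library 2, down to -4.17) and Sdha (0.34 without library 1, down to -2.03) did too. Beyond the fewer or shallower libraries in a fit, the cause was not tested. DESeq2 gave no P for Ndufs1. Depth limits IVG-NT day 6 most, where 17 to 23 subunits have no count in the shallow libraries.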
